A study of Mus musculus with 18 samples.

Results

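Chemokine and chemokine receptor genes of the Ccl, Ccr, Cxcl and Cxcr families were followed across 6 cell populations of the reprogramming of mouse cells towards cardiomyocytes. All genes whose symbol is 1 of these 4 stems plus a number were taken, each through the single-gene probe set with the highest mean over the 18 arrays, which gave 47 genes out of 19912, 32 of them ligands and 15 receptors. The groups were iCMs (GFP+ induced cardiomyocyte-like cells) at 2 and at 4 weeks, GFP- cells (in which reprogramming failed) at 2 and at 4 weeks, neonatal cardiomyocytes and neonatal cardiac fibroblasts. Each group had 3 Affymetrix mouse Gene 1.0 ST arrays and came from CD1 mice. The reprogrammed, the GFP- and the native cells therefore share the strain, and no group carries a labelled mutation. The labels name neither the factors nor the promoter that drives GFP. In the published work on these cells the reporter was under the alpha-myosin heavy chain promoter and the factors were Gata4, Mef2c and Tbx5, so iCMs are a population gated on 1 cardiac promoter. The cells are bulk populations, in which fewer cells of a type and less RNA per cell cannot be told apart.

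Chemokines are small secreted proteins that bind G-protein-coupled receptors and direct the migration of leukocytes and other cells. They are grouped by the spacing of their first cysteines into CC and CXC ligands, and many of the inflammatory ones lie side by side in gene clusters and are induced through NF-kappaB, while Cxcl12 and a few others are made constitutively by stroma. In the heart, resident macrophages, fibroblasts and endothelial cells are known sources, and the monocyte chemoattractant Ccl2 with its receptor Ccr2 brings monocytes into injured myocardium.

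The stretches just upstream of 5 ligand genes are shown because these genes include 3 near neighbours on chromosome 5 that attract neutrophils, the ligand with the largest span of group means (Ccl12) and a stromal ligand that changed over time in another direction (Cxcl12). Each line gives the 120 bases before the annotated start, 5′ to 3′ on the gene's own strand, from RefSeq's table for GRCm38.p6. Capitals mark the core of an NF-kappaB site (GGG, any 2 bases, then TTTCC) on either strand, and TATAAA on the gene's strand. The positions are chr5:90891125-90891244 for Cxcl1, chr5:90903779-90903898 for Cxcl2, chr5:90785981-90786100 for Cxcl3, chr11:82101725-82101844 for Ccl12 and chr6:117168415-117168534 for Cxcl12, all on the plus strand.
Cxcl1: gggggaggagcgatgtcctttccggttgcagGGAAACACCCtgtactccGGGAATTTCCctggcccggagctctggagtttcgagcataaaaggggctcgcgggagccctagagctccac
Cxcl2: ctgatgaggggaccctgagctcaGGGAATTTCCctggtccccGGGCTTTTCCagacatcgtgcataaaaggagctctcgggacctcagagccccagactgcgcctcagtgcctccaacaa
Cxcl3: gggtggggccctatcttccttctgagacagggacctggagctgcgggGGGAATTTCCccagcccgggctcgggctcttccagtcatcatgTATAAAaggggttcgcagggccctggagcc
Ccl12: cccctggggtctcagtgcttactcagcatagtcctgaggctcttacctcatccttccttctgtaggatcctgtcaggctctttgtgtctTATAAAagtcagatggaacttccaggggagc
Cxcl12: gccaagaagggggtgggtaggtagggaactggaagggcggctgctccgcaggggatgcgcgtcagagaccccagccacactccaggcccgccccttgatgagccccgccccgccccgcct

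Of the 47 genes, 33 had an entry in the promoter table, and the 250 bases before the start were searched on both strands. The NF-kappaB core was found upstream of 6 of the 33 genes, namely Cxcl1, Cxcl2, Cxcl3, Ccl9, Ccl20 and Ccr3, and Cxcl1 and Cxcl2 each held 2 matches. It was found in 464 of 32851 promoters in all, or 1.41%. TATAAA was on either strand upstream of 9 of the 33 genes, each of which held it on its own strand, and on either strand in 12.4% of all promoters. The third motif searched, GAAA, any 2 bases and GAAA again, of the kind bound by interferon regulatory factors, was on either strand upstream of Ccl19, Cxcl10 and Cxcl14, which are 3 of the 33, and in 2.98% of all promoters. The 33 are counted by gene and the shares of all by promoter. A match is a description of the letters only.

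The values are log2 intensities, so a difference of 1 is a 2-fold difference in signal, and signals of different genes are not set against each other. Array medians ran from 7.32 to 7.44, and arrays of a group correlated at 0.99 to 0.996 over all genes. The list of 12 cardiomyocyte genes averaged 11.14 in 2-week iCMs, 11.64 in 4-week iCMs, 8.16 in 2-week GFP- cells, 8.06 in 4-week GFP- cells, 12.90 in cardiomyocytes and 7.29 in cardiac fibroblasts. The list of 12 fibroblast genes was highest in cardiac fibroblasts, at 10.73. In the cultures labelled cardiac fibroblasts the 20 macrophage markers averaged 11.3, as against 6.70 in cardiomyocytes. Here "cardiac fibroblasts" is therefore the labelled culture and not a pure cell type. A group mean under 6.16, the lowest 25th percentile of any array, was taken as near background, a limit already known from earlier results of these data. Near background in all 6 groups were 4 genes (Cxcr2, Cxcl15, Ccr8 and Cxcr5), in some groups 6, and in none 37. The size of a difference that involves such a mean is uncertain.

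Macrophage markers are given first, since several of these genes are known products of macrophages. Their 20 genes averaged 9.22 to 9.55 over the arrays of 2-week iCMs, 8.87 to 9.02 in 4-week iCMs, 11.54 to 11.56 in 2-week GFP- cells, 11.52 to 11.65 in 4-week GFP- cells, 6.63 to 6.81 in cardiomyocytes and 11.18 to 11.42 in cardiac fibroblasts. All 20 were above background in every group but cardiomyocytes, where 17 were, and there the defining marker Adgre1 averaged 5.60 ± 0.26, near background (SD, n = 3), as against 11.94 ± 0.15 in cardiac fibroblasts. Csf1r, the receptor of the macrophage growth factor, averaged 9.21 in 2-week iCMs, 8.17 in 4-week iCMs, 11.72 in 2-week GFP- cells, 11.32 in 4-week GFP- cells, 6.35 in cardiomyocytes and 11.27 in cardiac fibroblasts. Averages of the lists of 10 neutrophil, 11 T and NK cell, 7 B cell and 8 dendritic cell markers stayed between 6.26 and 6.77 in all 6 groups. Single members did differ. Of the 10 neutrophil markers, 3 were lower and none higher in 2-week iCMs than in 2-week GFP- cells, beside 18.4% and 16.2% of all genes. Mmp8 averaged 5.96 and 8.22 there. The dendritic cell marker Itgax ran from 6.49 in cardiomyocytes to 9.48 in 4-week GFP- cells. The part of macrophage RNA in the results below was not tested.

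**Figure D1:**
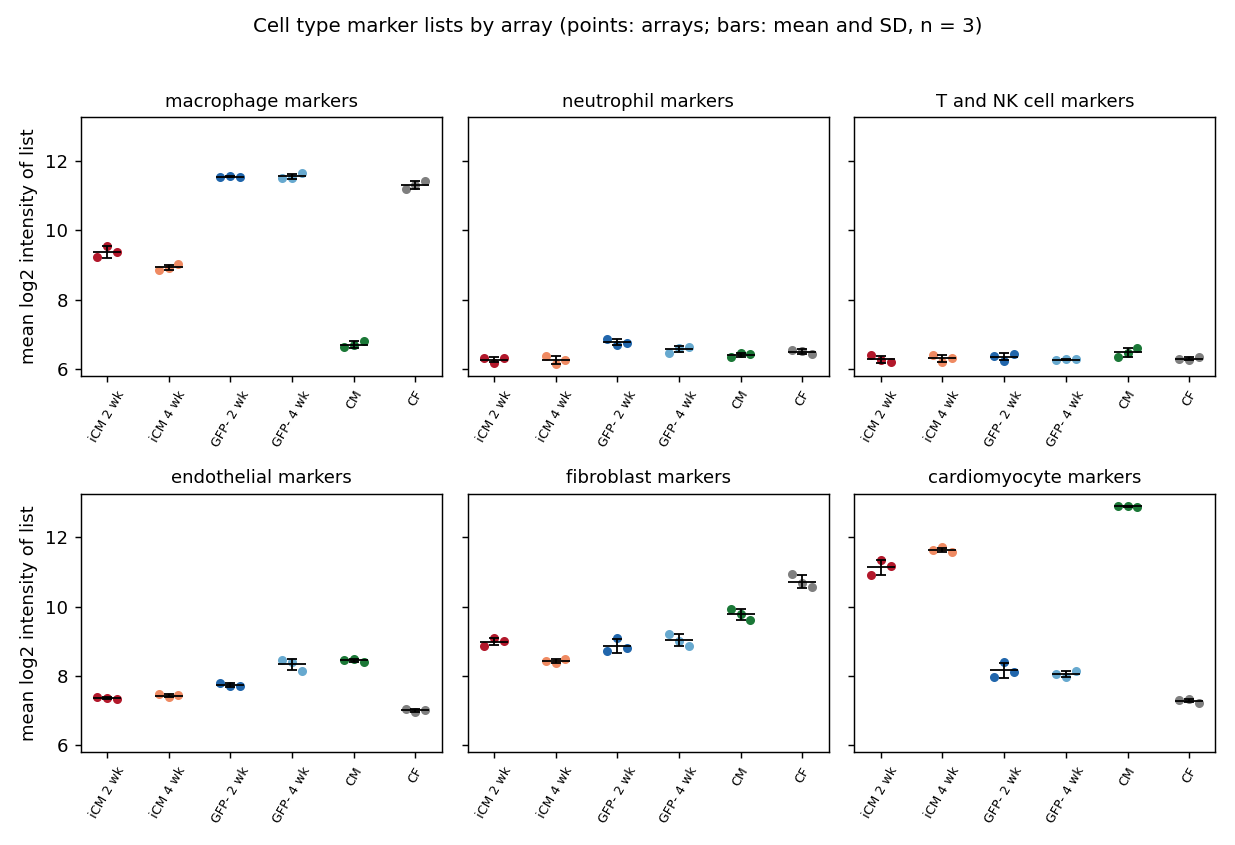
Mean log2 intensity of 6 lists of cell type markers on each array (points), with the mean and SD of each group (bars, n = 3), for the 6 groups named on the horizontal axis. Macrophage markers were lowest in cardiomyocytes, between 8.87 and 9.55 on the 6 iCM arrays, and above 11 on every GFP- and fibroblast array. Averages of the neutrophil and of the T and NK cell markers stayed between 6.15 and 6.87.

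The first question is which of these genes set the cells that turned on the reporter apart from those that did not. At both times most of the called genes were lower in iCMs than in GFP- cells, among them the ligands Ccl2, Ccl12, Ccl3, Ccl4, Cxcl1 and Cxcl2 and the receptors Ccr1 and Cxcr4. With limma over all genes, a gene was called at a Benjamini-Hochberg adjusted p under 0.05. At 2 weeks 21 of the 47 genes were called, or 44.7%, beside 34.5% of all genes: 2 were higher (background 16.2%) and 19 lower (background 18.4%). Among them 13 differed at least 2-fold, beside 9.03% of all genes. At 4 weeks 24 of the 47 were called, or 51.1%, beside 34.2% of all genes: 2 higher (17.2%) and 22 lower (17.1%), with 16 at least 2-fold (8.55%). The median over all 47 genes, iCM minus GFP-, was -0.20 at 2 weeks, against -0.02 over all genes, and -0.15 at 4 weeks, against 0.05. Of the 20 macrophage markers, 20 were called lower at 2 weeks and 19 at 4 weeks.

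The second question is how each reprogrammed population stood to the fibroblast cultures. Most genes called in iCMs were lower than in cardiac fibroblasts, while for 2-week GFP- cells the shares called were near those of all genes in both directions. iCMs of 2 weeks differed from cardiac fibroblasts in 22 genes (46.8%, beside 33.3% of all genes), 4 higher (17.4%) and 18 lower (15.8%), with 14 at least 2-fold (7.23%). At 4 weeks they differed in 21 (44.7%, beside 29.5%), 2 higher (14.3%) and 19 lower (15.2%), with 15 at least 2-fold (7.74%). GFP- cells of 2 weeks differed in 11 (23.4%, beside 22.7%), 7 higher (13.8%) and 4 lower (8.93%), shares of 14.9% and 8.51% that are near the background, with 6 at least 2-fold (2.37%). At 4 weeks they also differed in 11 (23.4%, beside 11.5%), 7 higher (5.79%) and 4 lower (5.70%), with 5 at least 2-fold (2.02%). The medians over the 47 genes were -0.12 for 2-week iCMs, -0.13 for 4-week iCMs, 0.03 for 2-week GFP- cells and 0.02 for 4-week GFP- cells, against 0.03, 0.02, 0.05 and -0.01 over all genes. These 4 comparisons share the fibroblast arrays.

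Neonatal cardiomyocytes gave the other end of the range. Cardiomyocytes differed from cardiac fibroblasts in 22 genes (46.8%, beside 41.0% of all genes), 1 higher (19.6%) and 21 lower (21.5%), and 16 of the 22 differed at least 2-fold, beside 11.8% of all genes. iCMs of 2 weeks differed from cardiomyocytes in 19 genes (40.4%, beside 42.1%), 14 higher (22.7%) and 5 lower (19.4%), with 9 at least 2-fold (10.5%). At 4 weeks they differed in 15 (31.9%, beside 35.1%), 14 higher (19.0%) and 1 lower (16.1%), with 7 at least 2-fold (8.33%). The medians over the 47 genes were 0.06 and 0.11, against -0.01 over all genes at both times, and that of cardiomyocytes against cardiac fibroblasts was -0.15, against 0.03. With both directions together, the shares called in iCMs against cardiomyocytes were thus no larger than those of all genes. By direction, the share higher was 29.8% at each time, above that of all genes. The shares lower were 10.6% at 2 weeks and 2.13% at 4 weeks, below those of all genes. The shares at least 2-fold different were above those of all genes. Macrophage markers were called higher in iCMs than in cardiomyocytes for 19 of 20 genes at each time.

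Over time, nearly all genes called in iCMs fell, while those called in GFP- cells were split between higher and lower. From 2 to 4 weeks 11 genes were called in iCMs (23.4%, beside 11.5% of all genes), 1 higher (4.29%) and 10 lower (7.24%), with 6 at least 2-fold (0.507%). In GFP- cells 11 were called too (23.4%, beside 17.4%), 6 higher (7.16%) and 5 lower (10.2%), with 5 at least 2-fold (1.55%). The time change itself differed between iCMs and GFP- cells, as tested by the interaction, for 9 genes (19.1%, beside 3.94% of all genes), 1 with a higher change in iCMs (1.86%) and 8 with a lower one (2.08%). The difference was at least 2-fold for 2 of them (1.11%). The medians over the 47 genes were -0.05 in iCMs, -0.03 in GFP- cells and -0.07 in the interaction, against -0.01, -0.06 and 0.04 over all genes. Of 20 macrophage markers, 10 fell over time in iCMs and none rose, while in GFP- cells 3 fell and 1 rose.

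Across the 6 groups, 21 genes had group means at least 1 log2 unit apart and 11 at least 3, whereas 23 spanned less than 0.5. Of the 21, 15 were lowest in cardiomyocytes and 4 in 4-week iCMs. The highest mean was in 2-week iCMs for 1 gene, in 2-week GFP- cells for 6, in 4-week GFP- cells for 8 and in cardiac fibroblasts for 6.

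**Figure D2:**
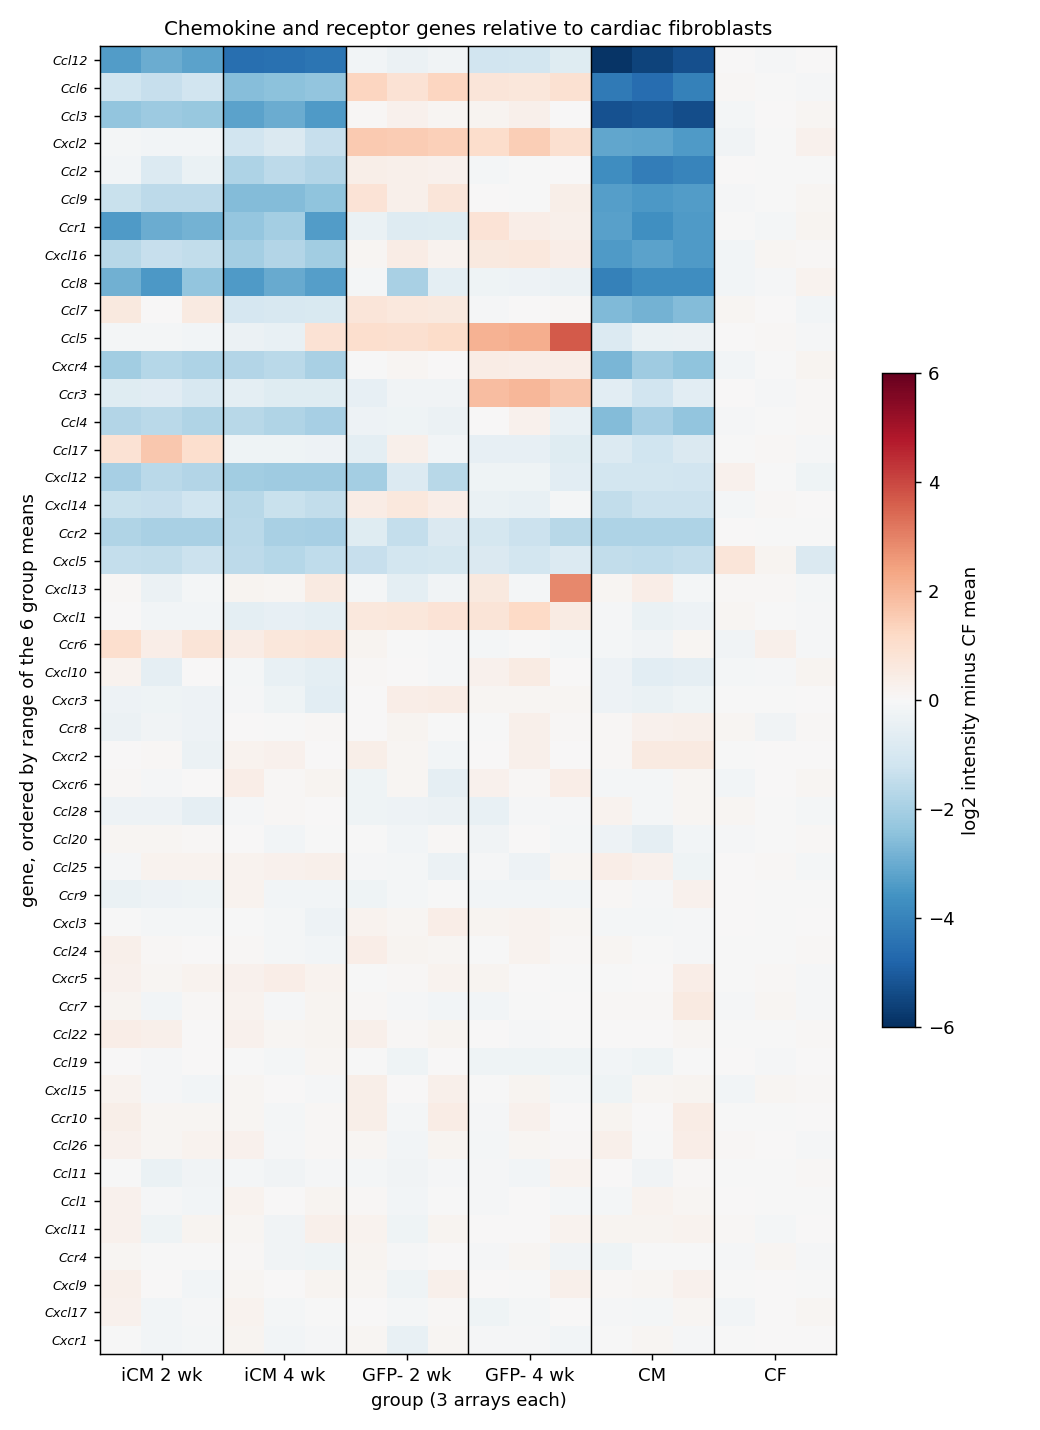
Log2 intensity minus the cardiac fibroblast mean for the 47 genes (down the page, ordered by the range of their group means) on the 18 arrays (across, 3 for each of 6 groups); red is higher and blue lower than that mean. The upper 21 genes, from Ccl12 to Cxcl1, carry the large differences, deepest in cardiomyocytes and 4-week iCMs.

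The monocyte chemoattractant family (Ccl2, Ccl7, Ccl8 and Ccl12) was lower in 4-week iCMs than in 4-week GFP- cells for all 4 members, beside 17.1% of all genes. At 2 weeks 3 of the 4 were lower, beside 18.4% of all genes. Ccl2, the main monocyte chemoattractant, had log2 intensities of 11.86, 11.17 and 11.61 in 2-week iCMs, 10.15, 10.41 and 10.25 in 4-week iCMs, 12.34, 12.29 and 12.25 in 2-week GFP- cells and 11.88, 11.98 and 12 in 4-week GFP- cells. The native cells gave 8.28, 7.84 and 8.02 as cardiomyocytes and 12.02, 11.98 and 11.99 as cardiac fibroblasts. Its iCM arrays lay below every GFP- and fibroblast array and above every cardiomyocyte array. The difference of iCMs from GFP- cells was -0.75 ± 0.13 (adjusted p = 0.000134) at 2 weeks and -1.69 ± 0.13 (adjusted p = 3.04e-09) at 4 weeks (SE, limma), which is 1.68-fold and 3.22-fold lower. Against cardiomyocytes Ccl2 was higher by 3.50 ± 0.13 in 2-week iCMs and 2.22 ± 0.13 in 4-week iCMs (adjusted p = 5.39e-14 and 5.37e-11). Its fall of -0.45 ± 0.13 (adjusted p = 0.0124) in 2-week iCMs against cardiac fibroblasts was no longer called without 2-week iCM array 2 (-0.26, adjusted p = 0.103).

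Ccl7, a second monocyte attractant that lies next to Ccl2, had 10.70, 10.14 and 10.67 in 2-week iCMs, 9.12, 9.15 and 9.21 in 4-week iCMs, 10.86, 10.76 and 10.69 in 2-week GFP- cells and 10.07, 10.16 and 10.19 in 4-week GFP- cells. It was 7.47, 7.28 and 7.51 in cardiomyocytes and 10.25, 10.12 and 9.98 in cardiac fibroblasts. The 2-week iCM and GFP- arrays overlapped, and the difference between them of -0.26 ± 0.12 (adjusted p = 0.106) was not called, while the 4-week arrays were apart, at -0.98 ± 0.12 (adjusted p = 1.47e-06). In 2-week iCMs Ccl7 was higher than in cardiac fibroblasts by 0.39 ± 0.12 (adjusted p = 0.0159), a call lost without fibroblast array 3 or 2-week iCM array 1 or 3 taken singly (0.29 to 0.32, adjusted p from 0.0869 to 0.0918). Two-week GFP- cells exceeded cardiac fibroblasts by 0.65 ± 0.12 (adjusted p = 0.000489).

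Ccl12, a mouse ligand of Ccr2 with no direct human counterpart, spanned the widest range of the 47 genes, with 8.65, 9.03 and 8.83 in 2-week iCMs, 7.48, 7.54 and 7.64 in 4-week iCMs, 11.86, 11.69 and 11.80 in 2-week GFP- cells and 10.86, 10.90 and 11.28 in 4-week GFP- cells. In cardiomyocytes it was 6.13, 6.46 and 6.76, and in cardiac fibroblasts 12.05, 11.96 and 12.04. The 6 groups did not overlap at all, in the ascending order cardiomyocytes, 4-week iCMs, 2-week iCMs, 4-week GFP- cells, 2-week GFP- cells and cardiac fibroblasts. iCMs of 2 weeks were 7.69-fold below 2-week GFP- cells (-2.94 ± 0.14 (adjusted p = 1.83e-12)) and those of 4 weeks 11-fold below 4-week GFP- cells (-3.46 ± 0.14 (adjusted p = 1.11e-13)). Cardiomyocytes were 47.5-fold below cardiac fibroblasts. Ccl12 was the family member that 4-week GFP- cells held below cardiac fibroblasts, by -1.01 ± 0.14 (adjusted p = 2.93e-05), and the other 3 were not called there.

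Ccl8, which in the mouse is known to act through Ccr8, had 6.76, 6.16 and 7.26 in 2-week iCMs, 6.21, 6.61 and 6.32 in 4-week iCMs, 9.52, 7.67 and 9.03 in 2-week GFP- cells and 9.37, 9.33 and 9.29 in 4-week GFP- cells. Cardiomyocytes had 5.57, 5.89 and 5.90, and cardiac fibroblasts had 9.48, 9.55 and 9.85. The 2-week GFP- arrays were far apart, with array 2 the lowest. iCMs were lower than GFP- cells by 4.03-fold at 2 weeks and 7.72-fold at 4 weeks (adjusted p = 2.83e-05 and 2.14e-07). The difference of 2-week GFP- cells from cardiac fibroblasts, -0.89 ± 0.31 (adjusted p = 0.0477), with overlapping arrays, was lost without fibroblast array 1, 2 or 3 or 2-week GFP- array 2 taken singly (-0.96 to -0.35, adjusted p from 0.0745 to 0.278). The difference of 2-week iCMs from cardiomyocytes, 0.94 ± 0.31 (adjusted p = 0.0198), was lost without cardiomyocyte array 1 or 2-week iCM array 3 taken singly (0.68 to 0.83, adjusted p from 0.0733 to 0.125), and Ccl8 was near background in cardiomyocytes.

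**Figure D3:**
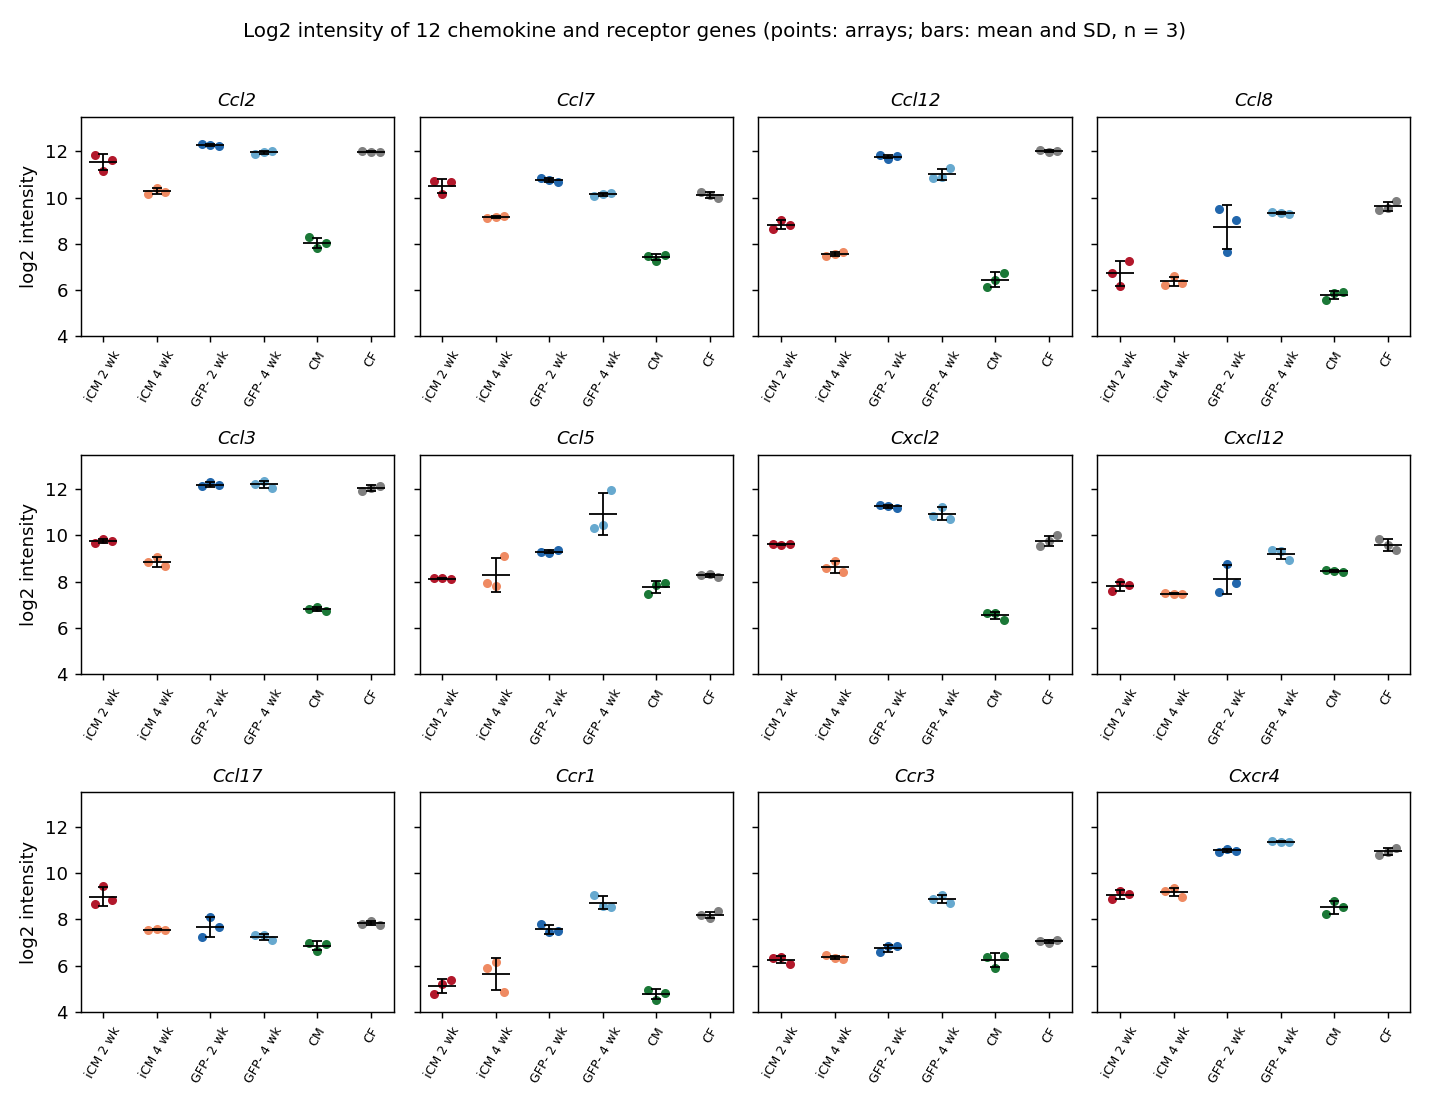
Log2 intensity of 12 chemokine and receptor genes on each array (points), with group means and SD (bars, n = 3), for the 6 groups on the horizontal axis. Ccl2, Ccl12 and Ccl3 are lowest in cardiomyocytes, intermediate in iCMs and high in GFP- cells and fibroblasts. Cxcl2 is lowest in cardiomyocytes and highest in GFP- cells, with fibroblasts overlapping 2-week iCMs. Ccl17 is highest in 2-week iCMs and Ccr3 in 4-week GFP- cells.

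The inflammatory CC ligands that lie side by side on chromosome 11 (Ccl3, Ccl4, Ccl5, Ccl6 and Ccl9) were lower in iCMs than in GFP- cells for 5 of 5 genes at both times. Of all genes, 18.4% were lower at 2 weeks and 17.1% at 4 weeks. Against cardiac fibroblasts 3 of the 5 were higher in 2-week GFP- cells (13.8% of all genes) and 2 in 4-week GFP- cells (5.79%). In each iCM group 4 of the 5 were lower than in cardiac fibroblasts, beside 15.8% of all genes at 2 weeks and 15.2% at 4 weeks. The 20 macrophage markers moved in the same directions, and their part was not tested. Ccl3, an inflammatory ligand that macrophages make in quantity, had 9.67, 9.87 and 9.76 in 2-week iCMs, 8.84, 9.08 and 8.66 in 4-week iCMs, 12.12, 12.30 and 12.16 in 2-week GFP- cells and 12.23, 12.36 and 12.07 in 4-week GFP- cells. The native cells gave 6.82, 6.91 and 6.72 as cardiomyocytes and 11.92, 12.06 and 12.16 as cardiac fibroblasts. GFP- and fibroblast arrays overlapped and lay far above both iCM groups, which did not overlap with each other or with cardiomyocytes. The difference of iCMs from GFP- cells was -2.43 ± 0.11 (adjusted p = 1.13e-12) at 2 weeks and -3.36 ± 0.11 (adjusted p = 9.12e-15) at 4 weeks.

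Ccl4, the close relative of Ccl3, had 8.45, 8.59 and 8.43 in 2-week iCMs, 8.56, 8.40 and 8.22 in 4-week iCMs, 9.91, 9.98 and 9.86 in 2-week GFP- cells and 10.24, 10.46 and 9.78 in 4-week GFP- cells. It was 7.64, 8.23 and 7.85 in cardiomyocytes and 10.17, 10.19 and 10.30 in cardiac fibroblasts. The iCM arrays of both times lay below all GFP- arrays, at -1.43 ± 0.15 (adjusted p = 1.57e-07) at 2 weeks and -1.77 ± 0.15 (adjusted p = 7.69e-09) at 4 weeks. The difference of 4-week iCMs from cardiomyocytes, 0.49 ± 0.15 (adjusted p = 0.0142), had overlapping arrays and was lost without cardiomyocyte array 1 or 3 or 4-week iCM array 1 taken singly (0.35 to 0.46, adjusted p from 0.0506 to 0.0979). Unlike Ccl3, Ccl4 was not called over time in iCMs (-0.10 ± 0.15 (adjusted p = 0.769)).

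Ccl5, a ligand of Ccr1 and Ccr3 that T cells and macrophages secrete, had 8.14, 8.14 and 8.13 in 2-week iCMs, 7.94, 7.82 and 9.13 in 4-week iCMs, 9.30, 9.23 and 9.36 in 2-week GFP- cells and 10.34, 10.44 and 11.96 in 4-week GFP- cells. In cardiomyocytes it was 7.46, 7.86 and 7.94, and in cardiac fibroblasts 8.30, 8.34 and 8.19. At 4 weeks array 3 was the highest of its group in iCMs and in GFP- cells. GFP- cells rose over time by 1.62 ± 0.32 (adjusted p = 0.00162), to a mean 6.23-fold that of cardiac fibroblasts (2.64 ± 0.32 (adjusted p = 8.75e-06)), and iCMs did not pass the test (0.16 ± 0.32 (adjusted p = 0.831)). The smaller excess of 2-week GFP- cells over cardiac fibroblasts, 1.02 ± 0.32 (adjusted p = 0.0274), was lost without fibroblast array 1, 2 or 3 or 2-week GFP- array 1 or 3 taken singly (0.98 to 1.06, adjusted p from 0.0561 to 0.0747). iCMs were below GFP- cells by -1.16 ± 0.32 at 2 weeks and -2.62 ± 0.32 at 4 weeks (adjusted p = 0.00745 and 1.64e-06).

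Ccl6 and Ccl9 are myeloid ligands of Ccr1 found in rodents. Ccl6 had 10.29, 10.12 and 10.37 in 2-week iCMs, 8.93, 9.05 and 9.12 in 4-week iCMs, 12.78, 12.39 and 12.78 in 2-week GFP- cells and 12.21, 12.20 and 12.40 in 4-week GFP- cells. Cardiomyocytes had 7.27, 6.91 and 7.44, and cardiac fibroblasts had 11.58, 11.47 and 11.44. Cardiac fibroblasts lay between the GFP- and the iCM arrays, so GFP- cells were above them (1.15 ± 0.13 (adjusted p = 1.84e-06) at 2 weeks, 0.77 ± 0.13 (adjusted p = 0.000262) at 4 weeks) and iCMs below them (-1.24 ± 0.13 (adjusted p = 1.53e-07) and -2.46 ± 0.13 (adjusted p = 5.69e-12)). Its fall over time in GFP- cells, -0.38 ± 0.13 (adjusted p = 0.0431), with overlapping arrays, was lost without 2-week GFP- array 1 or 3 or 4-week GFP- array 1 or 2 taken singly (-0.35 to -0.32, adjusted p from 0.127 to 0.171). Ccl9 had 8.68, 8.45 and 8.45 in 2-week iCMs, 7.44, 7.42 and 7.62 in 4-week iCMs, 10.88, 10.34 and 10.77 in 2-week GFP- cells and 10.04, 10.01 and 10.41 in 4-week GFP- cells. The native cells gave 6.73, 6.58 and 6.70 as cardiomyocytes and 9.97, 10.01 and 10.14 as cardiac fibroblasts. It was lower in iCMs than in GFP- cells by -2.13 ± 0.13 (adjusted p = 6.78e-11) at 2 weeks and -2.66 ± 0.13 (adjusted p = 1.91e-12) at 4 weeks, and its fall over time in GFP- cells (-0.51 ± 0.13 (adjusted p = 0.00969)) was lost without 2-week GFP- array 1 or 4-week GFP- array 2 taken singly (-0.43 to -0.40, adjusted p from 0.0529 to 0.0688).

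The CXC ligands that attract neutrophils (Cxcl1, Cxcl2, Cxcl3, Cxcl5 and Cxcl15) were lower in iCMs than in GFP- cells for 3 of 5 genes at 2 weeks (18.4% of all genes) and 4 of 5 at 4 weeks (17.1%). Cxcl1 and Cxcl2 were the members that GFP- cells held above cardiac fibroblasts at both times. Cxcl2 had 9.63, 9.60 and 9.62 in 2-week iCMs, 8.60, 8.90 and 8.40 in 4-week iCMs, 11.33, 11.27 and 11.19 in 2-week GFP- cells and 10.83, 11.25 and 10.72 in 4-week GFP- cells. It was 6.65, 6.63 and 6.35 in cardiomyocytes and 9.56, 9.74 and 10.01 in cardiac fibroblasts. GFP- arrays exceeded every fibroblast array, by 1.49 ± 0.14 (adjusted p = 3.1e-07) at 2 weeks and 1.17 ± 0.14 (adjusted p = 7.58e-06) at 4 weeks. Two-week iCMs overlapped with cardiac fibroblasts, at -0.15 ± 0.14 (adjusted p = 0.47), which was not called, and 4-week iCMs lay below them at -1.14 ± 0.14 (adjusted p = 1.99e-06). Against cardiomyocytes Cxcl2 was 8.44-fold higher in 2-week iCMs and 4.27-fold higher in 4-week iCMs.

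Cxcl1 had 10.003, 9.80 and 9.82 in 2-week iCMs, 9.36, 9.46 and 9.39 in 4-week iCMs, 10.58, 10.65 and 10.77 in 2-week GFP- cells and 10.73, 11.13 and 10.47 in 4-week GFP- cells. In cardiomyocytes it was 9.89, 9.58 and 9.63, and in cardiac fibroblasts 10.10, 9.91 and 9.87. It ran over a narrower range than Cxcl2 and, unlike it, was not called between cardiomyocytes and cardiac fibroblasts (-0.26 ± 0.13 (adjusted p = 0.126)). iCMs lay below GFP- cells by -0.80 ± 0.13 (adjusted p = 4.81e-05) at 2 weeks and -1.37 ± 0.13 (adjusted p = 4.16e-08) at 4 weeks. The fall over time in iCMs, -0.47 ± 0.13 (adjusted p = 0.0245), was lost without 2-week iCM array 1 or 3 or 4-week iCM array 1, 2 or 3 taken singly (-0.50 to -0.40, adjusted p from 0.0519 to 0.0901). Cxcl3, a near neighbour of Cxcl1 and Cxcl2, stayed between 6.17 and 6.87 on all arrays. Its differences of iCMs from GFP- cells were -0.33 ± 0.09 (adjusted p = 0.0065) at 2 weeks and -0.32 ± 0.09 (adjusted p = 0.0072) at 4 weeks. Each was lost when 1 array was left out, the first without 2-week GFP- array 3 (-0.24, adjusted p = 0.054) and the second without 4-week iCM array 3 (-0.25, adjusted p = 0.0592). Cxcl15 was called in no comparison and was near background throughout.

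Cxcl5, a neutrophil attractant of epithelial and stromal cells, had 5.57, 5.53 and 5.73 in 2-week iCMs, 5.42, 5.30 and 5.49 in 4-week iCMs, 5.60, 5.90 and 5.95 in 2-week GFP- cells and 6.15, 5.91 and 6.15 in 4-week GFP- cells. Cardiomyocytes had 5.53, 5.49 and 5.58, and cardiac fibroblasts had 7.70, 7.15 and 6.13. It was above background in the mean of cardiac fibroblasts alone, where the 3 arrays were far apart. The differences from cardiac fibroblasts were -1.38 ± 0.23 (adjusted p = 8.15e-05) in 2-week iCMs, -1.59 ± 0.23 (adjusted p = 1.59e-05) in 4-week iCMs and -1.18 ± 0.23 (adjusted p = 0.000922) in 2-week GFP- cells. For 4-week GFP- cells the difference of -0.92 ± 0.23 (adjusted p = 0.0112), with overlapping arrays, was lost without fibroblast array 1 or 2 or 4-week GFP- array 2 taken singly (-0.84 to -0.57, adjusted p from 0.0553 to 0.0836). The difference of 4-week iCMs from 4-week GFP- cells, both near background, of -0.67 ± 0.23 (adjusted p = 0.0314) was lost without 4-week GFP- array 1 or 3 or 4-week iCM array 1, 2 or 3 taken singly (-0.71 to -0.62, adjusted p from 0.0517 to 0.0884).

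Among the other CXC ligands, Cxcl16, a transmembrane chemokine that also takes up oxidised lipid, had the same order of group means as the macrophage markers, whose part was not tested. Its log2 intensities were 8.30, 8.55 and 8.48 in 2-week iCMs, 7.90, 8.18 and 7.84 in 4-week iCMs, 10.06, 10.38 and 10.16 in 2-week GFP- cells and 10.52, 10.59 and 10.33 in 4-week GFP- cells. The native cells gave 6.52, 6.71 and 6.57 as cardiomyocytes and 9.79, 10.05 and 10.001 as cardiac fibroblasts. No iCM array reached a GFP- or fibroblast array, and no cardiomyocyte array reached an iCM array. iCMs were below GFP- cells by -1.76 ± 0.11 (adjusted p = 1.81e-10) at 2 weeks and -2.51 ± 0.11 (adjusted p = 7.57e-13) at 4 weeks. Its fall over time in iCMs, -0.47 ± 0.11 (adjusted p = 0.0102), was lost without 4-week iCM array 3 (-0.40, adjusted p = 0.0578).

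Cxcl14, a ligand made by epithelia and stroma, had 7.71, 7.68 and 7.86 in 2-week iCMs, 7.39, 7.70 and 7.59 in 4-week iCMs, 9.47, 9.68 and 9.43 in 2-week GFP- cells and 8.65, 8.60 and 8.95 in 4-week GFP- cells. It was 7.57, 7.75 and 7.75 in cardiomyocytes and 8.94, 9.12 and 9.08 in cardiac fibroblasts. It set iCMs and cardiomyocytes, which overlapped with each other, below GFP- cells and cardiac fibroblasts. The difference of iCMs from GFP- cells was -1.78 ± 0.11 (adjusted p = 8.83e-11) at 2 weeks and -1.17 ± 0.11 (adjusted p = 3e-08) at 4 weeks, and neither iCM group was called against cardiomyocytes (0.06 ± 0.11 (adjusted p = 0.716) and -0.13 ± 0.11 (adjusted p = 0.422)). In GFP- cells Cxcl14 fell over time by -0.79 ± 0.11 (adjusted p = 4.33e-05).

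Cxcl12, the stromal ligand of Cxcr4, had 7.59, 7.97 and 7.85 in 2-week iCMs, 7.50, 7.46 and 7.47 in 4-week iCMs, 7.57, 8.76 and 7.96 in 2-week GFP- cells and 9.35, 9.32 and 8.96 in 4-week GFP- cells. In cardiomyocytes it was 8.49, 8.48 and 8.43, and in cardiac fibroblasts 9.86, 9.59 and 9.35. Cardiac fibroblasts and 4-week GFP- cells were high, 4-week iCMs were lowest, and 2-week GFP- array 2 stood above the other 2 arrays of its group. The 2-week iCM and GFP- arrays overlapped (-0.29 ± 0.20 (adjusted p = 0.319), not called), and at 4 weeks iCMs were 3.33-fold lower (-1.74 ± 0.20 (adjusted p = 7.21e-07)). Both iCM groups lay below cardiomyocytes, by -0.99 ± 0.20 (adjusted p = 0.000522) at 4 weeks. At 2 weeks the difference was -0.66 ± 0.20 (adjusted p = 0.0115), a call lost without 2-week iCM array 1 (-0.56, adjusted p = 0.0553). Two-week GFP- cells were 2.84-fold below cardiac fibroblasts (-1.51 ± 0.20 (adjusted p = 1.92e-05)), and 4-week GFP- cells were not called (-0.39 ± 0.20 (adjusted p = 0.291)). The order of groups for Cxcl12 was unlike that of the macrophage markers, in that cardiomyocytes were above both iCM groups. The 12 fibroblast markers averaged 8.99 in 2-week iCMs, 8.43 in 4-week iCMs, 8.87 in 2-week GFP- cells, 9.03 in 4-week GFP- cells, 9.78 in cardiomyocytes and 10.73 in cardiac fibroblasts. They too were highest in cardiac fibroblasts and lowest in 4-week iCMs, with cardiomyocytes above both iCM groups. The 12 endothelial markers averaged 7.37 in 2-week and 7.44 in 4-week iCMs, and 7.74 in 2-week and 8.34 in 4-week GFP- cells. They averaged 8.46 in cardiomyocytes, again above both iCM groups, and 7.01 in cardiac fibroblasts, where, unlike Cxcl12, they were lowest. The part of either list was not tested.

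Cxcl13, the B cell attractant, rested on 1 array: it had 6.92, 6.22 and 9.23 in 4-week GFP- cells, and all other arrays lay between 5.77 and 6.90. Its rise over time in GFP- cells, 1.42 ± 0.44 (adjusted p = 0.0318), was lost without 2-week GFP- array 1, 2 or 3 or 4-week GFP- array 3 taken singly (0.53 to 1.51, adjusted p from 0.0597 to 0.0852), and was 2.04 (adjusted p = 0.0018) without 4-week GFP- array 2. The ligands of Cxcr3 that interferon gamma induces, Cxcl9 and Cxcl11, were called in no comparison. The third of them, Cxcl10, had 7.21, 6.47 and 7.02 in 2-week iCMs, 6.88, 6.57 and 6.45 in 4-week iCMs, 7.09, 7.05 and 6.94 in 2-week GFP- cells and 7.27, 7.51 and 7.05 in 4-week GFP- cells. Cardiomyocytes had 6.73, 6.40 and 6.46, and cardiac fibroblasts had 6.91, 6.95 and 7.20. Its arrays covered a narrow band in which groups mostly overlapped, with 4-week iCMs below 4-week GFP- cells by -0.64 ± 0.16 (adjusted p = 0.00369). The difference of cardiomyocytes from cardiac fibroblasts, -0.49 ± 0.16 (adjusted p = 0.0201), was lost without fibroblast array 3 or cardiomyocyte array 2 or 3 taken singly (-0.45 to -0.40, adjusted p from 0.0667 to 0.0958).

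Ccl17, a ligand of Ccr4 that attracts T helper 2 cells and is made by dendritic cells and macrophages, was highest in 2-week iCMs. It had 8.68, 9.46 and 8.82 in 2-week iCMs, 7.55, 7.58 and 7.55 in 4-week iCMs, 7.26, 8.12 and 7.68 in 2-week GFP- cells and 7.32, 7.33 and 7.10 in 4-week GFP- cells. The native cells gave 6.99, 6.63 and 6.94 as cardiomyocytes and 7.82, 7.92 and 7.75 as cardiac fibroblasts. Each 2-week iCM array was above every array of the other groups, and Ccl17 was the 1 gene of the 21 that was highest there. They exceeded 2-week GFP- cells by 1.30 ± 0.18 (adjusted p = 8.35e-06), cardiac fibroblasts by 1.16 ± 0.18 (adjusted p = 4.26e-05) and cardiomyocytes by 2.13 ± 0.18 (adjusted p = 7.5e-09). By 4 weeks iCMs had fallen by -1.43 ± 0.18 (adjusted p = 6.5e-05), and their difference from 4-week GFP- cells, 0.31 ± 0.18 (adjusted p = 0.222), was not called. The difference of 4-week GFP- cells from cardiac fibroblasts, -0.58 ± 0.18 (adjusted p = 0.0456), was lost without fibroblast array 1, 2 or 3 or 4-week GFP- array 1, 2 or 3 taken singly (-0.62 to -0.51, adjusted p from 0.0711 to 0.154).

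Ccl22, which shares Ccr4 with Ccl17 and lies near it, showed no such excess: it averaged 6.62 ± 0.20 in 2-week iCMs, 6.55 ± 0.07 in 4-week iCMs, 6.54 ± 0.12 in 2-week GFP- cells, 6.34 ± 0.05 in 4-week GFP- cells, 6.43 ± 0.06 in cardiomyocytes and 6.36 ± 0.05 in cardiac fibroblasts. Its 1 call, 0.25 ± 0.09 (adjusted p = 0.0451) in 2-week iCMs against cardiac fibroblasts, had overlapping arrays and was lost without fibroblast array 1, 2 or 3 or 2-week iCM array 1 or 2 taken singly (0.18 to 0.28, adjusted p from 0.0628 to 0.203). The eotaxins Ccl11, Ccl24 and Ccl26, which recruit eosinophils through Ccr3, and the Ccr8 ligand Ccl1 were called in no comparison.

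Of the homeostatic and mucosal CC ligands, Ccl25, the thymic and gut ligand of Ccr9, was called nowhere. Ccl19, a lymph node ligand of Ccr7, was 0.24 ± 0.09 (adjusted p = 0.0449) in 4-week iCMs against 4-week GFP- cells, a call lost without 4-week GFP- array 1, 2 or 3 or 4-week iCM array 1 or 3 taken singly (0.18 to 0.25, adjusted p from 0.0841 to 0.211). Ccl20, the ligand of Ccr6, was higher in 2-week iCMs than in cardiomyocytes by 0.44 ± 0.10 (adjusted p = 0.000686), and its other calls were lost when single arrays were left out: -0.34 ± 0.10 (adjusted p = 0.00615) in cardiomyocytes against cardiac fibroblasts without cardiomyocyte array 2 (-0.25, adjusted p = 0.0507), and 0.30 ± 0.10 (adjusted p = 0.0175) in 4-week iCMs against cardiomyocytes without cardiomyocyte array 2 or 4-week iCM array 1 or 3 taken singly (0.21 to 0.29, adjusted p from 0.0576 to 0.119). Ccl28, a mucosal ligand of Ccr10, was lower in 2-week iCMs than in cardiomyocytes by -0.45 ± 0.11 (adjusted p = 0.0021). Its call in 2-week iCMs against cardiac fibroblasts, -0.39 ± 0.11 (adjusted p = 0.00838), was lost without 2-week iCM array 3 (-0.31, adjusted p = 0.0572), and its rise over time in iCMs, 0.38 ± 0.11 (adjusted p = 0.0294), was lost without 2-week iCM array 3 or 4-week iCM array 2 or 3 taken singly (0.30 to 0.37, adjusted p from 0.0827 to 0.147).

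Among the receptors, Ccr1, which binds Ccl3, Ccl5, Ccl6 and Ccl9 on monocytes and macrophages, had 4.78, 5.20 and 5.36 in 2-week iCMs, 5.89, 6.15 and 4.85 in 4-week iCMs, 7.78, 7.45 and 7.49 in 2-week GFP- cells and 9.04, 8.59 and 8.53 in 4-week GFP- cells. It was 4.95, 4.52 and 4.82 in cardiomyocytes and 8.19, 8.06 and 8.35 in cardiac fibroblasts. Both iCM groups and cardiomyocytes were near background, and every GFP- and fibroblast array was above it. iCMs were below GFP- cells by -2.46 ± 0.24 (adjusted p = 5.3e-08) at 2 weeks and -3.09 ± 0.24 (adjusted p = 2.09e-09) at 4 weeks. GFP- cells rose over time by 1.15 ± 0.24 (adjusted p = 0.00218). The difference of 4-week iCMs from cardiomyocytes, 0.87 ± 0.24 (adjusted p = 0.00655), lay below background on both sides and was lost without 4-week iCM array 2 (0.61, adjusted p = 0.0597).

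Ccr2, the receptor that marks recruited monocytes, had 5.62, 5.46 and 5.45 in 2-week iCMs, 5.78, 5.46 and 5.43 in 4-week iCMs, 6.68, 5.96 and 6.55 in 2-week GFP- cells and 6.33, 6.09 and 5.72 in 4-week GFP- cells. In cardiomyocytes it was 5.53, 5.56 and 5.53, and in cardiac fibroblasts 7.43, 7.39 and 7.39. Cardiac fibroblasts were highest and overlapped with no other group, and both iCM groups, 4-week GFP- cells and cardiomyocytes were near background in the mean. The difference from cardiac fibroblasts was -1.89 ± 0.16 (adjusted p = 8.31e-09) in 2-week iCMs, -1.84 ± 0.16 (adjusted p = 1e-08) in 4-week iCMs, -1.003 ± 0.16 (adjusted p = 9.86e-05) in 2-week GFP- cells and -1.36 ± 0.16 (adjusted p = 4.17e-06) in 4-week GFP- cells. GFP- cells held less Ccr2 signal than cardiac fibroblasts while 8 of 20 macrophage markers at 2 weeks and 5 at 4 weeks were higher in them and none was lower. Of all genes, 13.8% were higher and 8.93% lower in GFP- cells at 2 weeks, and 5.79% and 5.70% at 4 weeks. iCMs were below GFP- cells at 2 weeks by -0.89 ± 0.16 (adjusted p = 0.000118). The difference at 4 weeks, -0.49 ± 0.16 (adjusted p = 0.0203), had overlapping arrays and was lost without 4-week GFP- array 1 or 2 or 4-week iCM array 2 or 3 taken singly (-0.46 to -0.35, adjusted p from 0.0603 to 0.133).

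Ccr3, the eotaxin receptor of eosinophils, rose in GFP- cells over time. It had 6.32, 6.37 and 6.07 in 2-week iCMs, 6.45, 6.31 and 6.31 in 4-week iCMs, 6.58, 6.83 and 6.84 in 2-week GFP- cells and 8.89, 9.05 and 8.71 in 4-week GFP- cells. Cardiomyocytes had 6.40, 5.90 and 6.42, and cardiac fibroblasts had 7.07, 6.98 and 7.11. The 3 arrays of 4-week GFP- cells stood above every other array, 4.38-fold above 2-week GFP- cells (2.13 ± 0.13 (adjusted p = 3.11e-09)), 3.56-fold above cardiac fibroblasts (1.83 ± 0.13 (adjusted p = 4.82e-09)), with 4-week iCMs 5.76-fold lower (-2.53 ± 0.13 (adjusted p = 4.08e-12)). Of the 8 mast cell and eosinophil markers, none was higher and 1 lower in 4-week than in 2-week GFP- cells, beside 7.16% higher and 10.2% lower of all genes. The 3 eosinophil genes of the list were named here after their values were seen. The peroxidase gene Epx averaged 5.77 ± 0.14 in 4-week and 5.86 ± 0.10 in 2-week GFP- cells, near background in both. Prg2, a granule protein gene, averaged 5.96 ± 0.15 at 4 weeks and 6.35 ± 0.16 at 2 weeks, and Siglecf, a surface lectin gene, averaged 7.28 ± 0.13 at 4 weeks and 7.56 ± 0.15 at 2 weeks, the last above background at both times. Ccr3 and Ccr2 are next to each other on chromosome 9, with Ccr1 near them, and in 4-week GFP- cells against cardiac fibroblasts Ccr3 was higher and Ccr2 lower.

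Ccr6, the receptor of Ccl20 on lymphocytes and dendritic cells, was the receptor that iCMs held above all other groups. It had 7.43, 6.83 and 7.21 in 2-week iCMs, 6.87, 7.08 and 7.13 in 4-week iCMs, 6.57, 6.41 and 6.36 in 2-week GFP- cells and 6.30, 6.41 and 6.30 in 4-week GFP- cells. The native cells gave 6.32, 6.21 and 6.52 as cardiomyocytes and 6.19, 6.71 and 6.37 as cardiac fibroblasts. Every iCM array was above every array of the other 4 groups. The excess over GFP- cells was 0.71 ± 0.14 (adjusted p = 0.000388) at 2 weeks and 0.69 ± 0.14 (adjusted p = 0.000535) at 4 weeks, that over cardiac fibroblasts 0.74 ± 0.14 (adjusted p = 0.000317) and 0.61 ± 0.14 (adjusted p = 0.00207), and that over cardiomyocytes 0.81 ± 0.14 (adjusted p = 7.67e-05) and 0.68 ± 0.14 (adjusted p = 0.000596).

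Cxcr4, the receptor of Cxcl12, had 8.88, 9.25 and 9.11 in 2-week iCMs, 9.21, 9.35 and 8.99 in 4-week iCMs, 10.93, 11.07 and 10.97 in 2-week GFP- cells and 11.40, 11.36 and 11.36 in 4-week GFP- cells. It was 8.23, 8.82 and 8.53 in cardiomyocytes and 10.79, 10.93 and 11.11 in cardiac fibroblasts. GFP- cells and cardiac fibroblasts were high, and the iCM arrays lay between them and the cardiomyocyte arrays without overlap. iCMs were below GFP- cells by -1.91 ± 0.13 (adjusted p = 4.03e-10) at 2 weeks and -2.19 ± 0.13 (adjusted p = 4.73e-11) at 4 weeks, and above cardiomyocytes by 0.55 ± 0.13 (adjusted p = 0.00168) and 0.66 ± 0.13 (adjusted p = 0.000416). The excess of 4-week GFP- cells over cardiac fibroblasts, 0.43 ± 0.13 (adjusted p = 0.0394), was lost without fibroblast array 1 or 2 or 4-week GFP- array 1, 2 or 3 taken singly (0.35 to 0.43, adjusted p from 0.082 to 0.192). At 2 weeks the receptor was lower in iCMs than in GFP- cells while its ligand Cxcl12 was not called, and at 4 weeks both were lower.

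Cxcr3, the receptor of Cxcl9 and Cxcl10 on T cells, was lower in iCMs than in GFP- cells by -0.58 ± 0.12 (adjusted p = 0.000622) at 2 weeks and -0.46 ± 0.12 (adjusted p = 0.00502) at 4 weeks, and the second was -0.30 (adjusted p = 0.0494) without 4-week iCM array 3. Its differences from cardiac fibroblasts in 4-week iCMs (-0.33 ± 0.12 (adjusted p = 0.0439)) and in cardiomyocytes (-0.32 ± 0.12 (adjusted p = 0.0368)) were lost without fibroblast array 1, 2 or 3 or 4-week iCM array 2 or 3 taken singly (-0.36 to -0.17, adjusted p from 0.0654 to 0.312) and without fibroblast array 1, 2 or 3 or cardiomyocyte array 1 or 2 taken singly (-0.34 to -0.29, adjusted p from 0.0626 to 0.105). The rise of Cxcr6, the receptor of Cxcl16, over time in GFP- cells, 0.48 ± 0.14 (adjusted p = 0.0216), had overlapping arrays and was lost without 2-week GFP- array 1 or 3 or 4-week GFP- array 1 or 3 taken singly (0.32 to 0.46, adjusted p from 0.0644 to 0.141).

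Ccr9, the gut-homing receptor, which was near background in 2-week iCMs, was lower there than in cardiomyocytes by -0.40 ± 0.10 (adjusted p = 0.00325), and its call against cardiac fibroblasts, -0.31 ± 0.10 (adjusted p = 0.0253), was lost without fibroblast array 1, 2 or 3 or 2-week iCM array 1 or 2 taken singly (-0.32 to -0.27, adjusted p from 0.0511 to 0.0877). Ccr8, Cxcr2 and Cxcr5 were near background in all groups, where calls amount to differences of dim signals. Ccr8 was -0.50 ± 0.10 in 2-week iCMs against cardiomyocytes (adjusted p = 0.000434), with calls lost against GFP- cells (-0.35 ± 0.10 (adjusted p = 0.0102)) without 2-week GFP- array 2 (-0.29, adjusted p = 0.053) and against cardiac fibroblasts (-0.29 ± 0.10 (adjusted p = 0.0333)) without fibroblast array 1 or 3 or 2-week iCM array 1 or 3 taken singly (-0.27 to -0.24, adjusted p from 0.0896 to 0.135). Cxcr2, the neutrophil receptor of Cxcl1 and Cxcl2, was 0.38 ± 0.15 (adjusted p = 0.0414) in cardiomyocytes against cardiac fibroblasts, lost without fibroblast array 1, 2 or 3 or cardiomyocyte array 2 or 3 taken singly (0.30 to 0.39, adjusted p from 0.0819 to 0.164), and -0.48 ± 0.15 (adjusted p = 0.0115) in 2-week iCMs against cardiomyocytes, lost without cardiomyocyte array 2 or 3 or 2-week iCM array 3 taken singly (-0.40 to -0.34, adjusted p from 0.061 to 0.0863). Cxcr5, the receptor of Cxcl13, was 0.30 ± 0.10 (adjusted p = 0.0315) in 4-week iCMs against cardiac fibroblasts, lost without fibroblast array 1 or 3 or 4-week iCM array 1 or 2 taken singly (0.24 to 0.31, adjusted p from 0.0565 to 0.134). Ccr4, Ccr7, Ccr10 and Cxcr1 were called in no comparison.

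**Figure D4:**
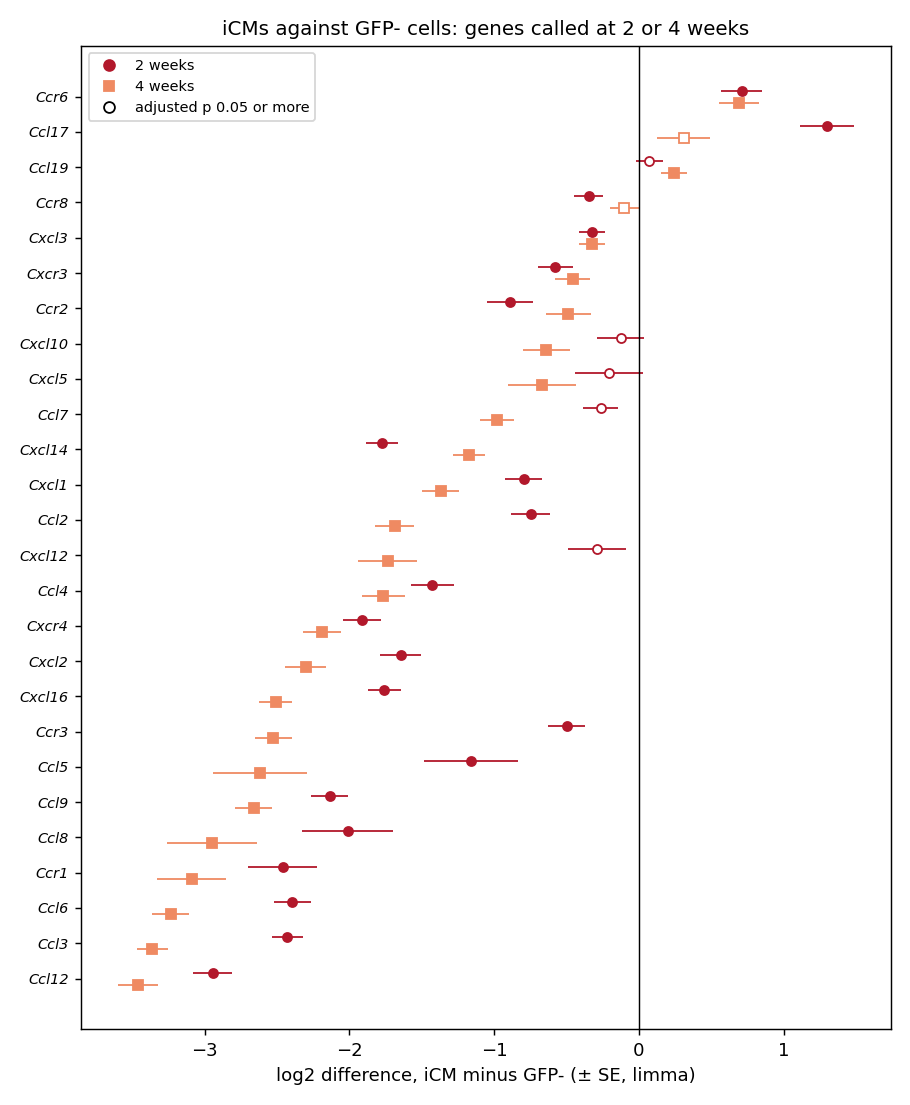
Difference of iCMs from GFP- cells (log2, limma estimate ± SE) for the genes called at 2 weeks (circles) or 4 weeks (squares); open symbols have an adjusted p of 0.05 or more. Nearly all lie left of 0, and Ccr6 and Ccl17 reach furthest to the right.

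The interaction compares the change from 2 to 4 weeks in iCMs with that in GFP- cells. Ccr3 had the largest difference, -2.03 ± 0.18 (adjusted p = 3.48e-06), from a change of 0.10 ± 0.13 in iCMs and 2.13 ± 0.13 in GFP- cells. Cxcl12 followed at -1.44 ± 0.29 (adjusted p = 0.00535), from -0.33 ± 0.20 in iCMs and 1.12 ± 0.20 in GFP- cells. Ccl2, at -0.94 ± 0.19 (adjusted p = 0.00623), Ccl3, at -0.93 ± 0.15 (adjusted p = 0.00128), and Ccl6, at -0.84 ± 0.18 (adjusted p = 0.00926), fell in iCMs. In GFP- cells Ccl6 fell less and the fall of Ccl2 was not called. Ccl3 did not fall there, with means of 12.20 at 2 weeks and 12.22 at 4 weeks. Cxcl16, at -0.75 ± 0.16 (adjusted p = 0.00997), changed by -0.47 ± 0.11 in iCMs and 0.28 ± 0.11 in GFP- cells. Of the 20 macrophage markers, 4 also had a called interaction, each with the lower change in iCMs, beside 2.08% of all genes. Their part was not tested.

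For the other 3 genes the call of the interaction was lost when certain arrays were left out singly, which also leaves fewer arrays in a group. Ccl7, at -0.72 ± 0.17 (adjusted p = 0.0192), was lost without 2-week GFP- array 3 or 2-week iCM array 3 taken singly (-0.68 to -0.63, adjusted p from 0.0521 to 0.0645). Ccl17, at -0.99 ± 0.26 (adjusted p = 0.0353), was lost without 2-week GFP- array 1 or 3 or 4-week GFP- array 1 or 2 or 2-week iCM array 2 or 4-week iCM array 1, 2 or 3 taken singly (-1 to -0.76, adjusted p from 0.0626 to 0.104). Cxcl14, at 0.60 ± 0.15 (adjusted p = 0.0301), from a change of -0.19 ± 0.11 in iCMs and -0.79 ± 0.11 in GFP- cells, was lost without 2-week GFP- array 1 or 2 or 4-week GFP- array 1 or 2 or 2-week iCM array 1 or 2 or 4-week iCM array 2 or 3 taken singly (0.53 to 0.63, adjusted p from 0.0521 to 0.093).

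**Figure D5:**
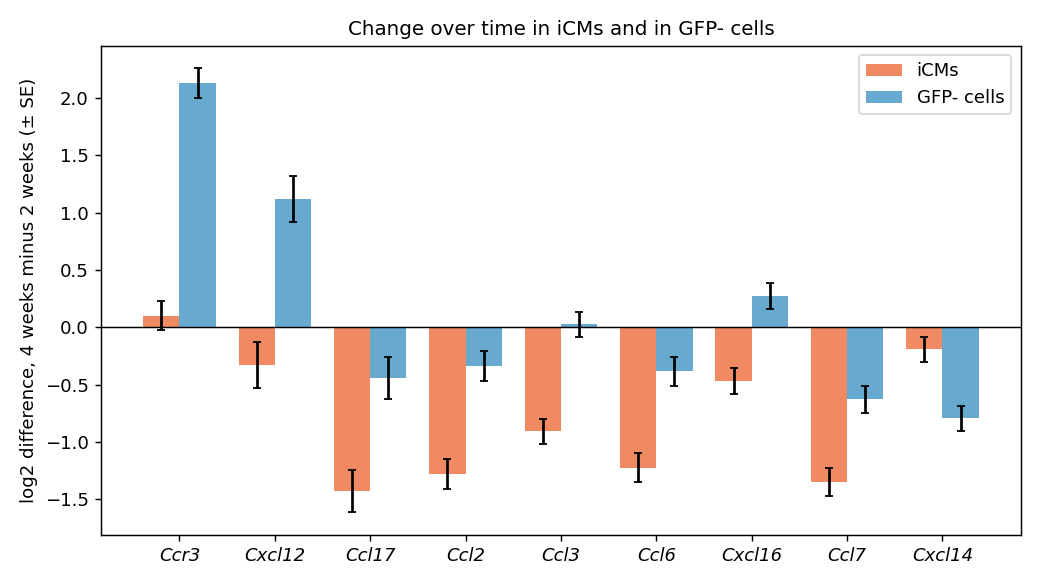
Change from 2 to 4 weeks (log2, 4 weeks minus 2 weeks, limma estimate ± SE) in iCMs and in GFP- cells for the 9 genes with a called interaction. Ccr3 and Cxcl12 rise in GFP- cells and not in iCMs. Ccl17, Ccl2, Ccl6 and Ccl7 fall more in iCMs than in GFP- cells, and Ccl3 falls in iCMs only.

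Neighbouring genes did not all move together. Of the 47 genes, 14 are on chromosome 11, 11 on chromosome 5 and 8 on chromosome 9. Neighbours were taken from the order of coding genes in RefSeq's GRCm38.p6 annotation. That order does not hold Cxcl11, which is on chromosome 5. On chromosome 11 the run Ccl2, Ccl7, Ccl11, Ccl12, Ccl8 and Ccl1 has no other coding gene inside it. Its members Ccl2, Ccl7, Ccl12 and Ccl8 were lower in 4-week iCMs than in 4-week GFP- cells, and Ccl11 and Ccl1 were called in no comparison. In the second run, Ccl5, Ccl9, Ccl6, Ccl3 and Ccl4, all 5 were lower in iCMs at both times. On chromosome 5 the run Cxcl3, Cxcl15, Cxcl1 and Cxcl2 held both Cxcl2, with group means 4.72 log2 units apart, and Cxcl15, which was called nowhere.

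Chemokine genes outside the 4 stems were measured as a list of 12, of which 1 was higher and 4 lower in 2-week iCMs than in 2-week GFP- cells, and none was higher and 4 lower at 4 weeks. Of all genes, 16.2% were higher and 18.4% lower at 2 weeks, and 17.2% and 17.1% at 4 weeks. The list's median was -0.03 at 2 weeks and -0.14 at 4 weeks, against -0.02 and 0.05 over all genes. Cx3cr1, the fractalkine receptor of resident macrophages and monocytes, was lower in iCMs by -2.02 ± 0.13 (adjusted p = 1.64e-10) at 2 weeks and -2.08 ± 0.13 (adjusted p = 8.45e-11) at 4 weeks, whereas its ligand Cx3cl1 averaged 7.37 in 2-week iCMs and 7.29 in 2-week GFP- cells. Pf4, a platelet and macrophage chemokine, was lower by -2.18 ± 0.23 (adjusted p = 1.89e-07) at 2 weeks and -2.99 ± 0.23 (adjusted p = 2.12e-09) at 4 weeks, though it rose over time in both iCMs (0.89 ± 0.23 (adjusted p = 0.0161)) and GFP- cells (1.70 ± 0.23 (adjusted p = 3.8e-05)). Ackr3, the scavenger receptor of Cxcl12, averaged 7.20 ± 0.41 in 2-week iCMs, 7.23 ± 0.12 in 4-week iCMs, 6.69 ± 0.15 in 2-week GFP- cells, 7.48 ± 0.07 in 4-week GFP- cells, 7.96 ± 0.22 in cardiomyocytes and 6.97 ± 0.15 in cardiac fibroblasts. It rose over time in GFP- cells by 0.79 ± 0.16 (adjusted p = 0.00133), as Cxcl12 did.

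Of 26 measured genes that carry the signal from chemokine receptors, 18 were lower and 4 higher in 2-week iCMs than in 2-week GFP- cells, and 19 were lower and 2 higher at 4 weeks, beside 18.4% lower and 16.2% higher of all genes at 2 weeks and 17.1% and 17.2% at 4 weeks. The list's median was -0.95 at 2 weeks and -0.80 at 4 weeks, against -0.02 and 0.05 over all genes. The leukocyte exchange factors Vav1 and Dock2 were lower by -2.87 ± 0.13 (adjusted p = 1.17e-12) and -2.83 ± 0.13 (adjusted p = 1.52e-12) at 2 weeks, and Rgs1, a regulator that shuts off G-protein signals, was lower by -3.24 ± 0.16 (adjusted p = 2.03e-12) at 4 weeks. Plcb1, a phospholipase C that many tissues express, was higher in 4-week iCMs than in cardiac fibroblasts by 3.01 ± 0.11 (adjusted p = 2.72e-14). The macrophage markers were lower in the same comparisons, and their part was not tested.

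Of 15 NF-kappaB factors and feedback genes, 10 were lower and none higher in iCMs than in GFP- cells at 2 weeks, and 9 lower and none higher at 4 weeks, beside 18.4% of all genes lower at 2 weeks and 17.1% at 4 weeks. The list's median was -0.32 at 2 weeks and -0.42 at 4 weeks. Tnfaip3, a feedback inhibitor induced by NF-kappaB, was lower by -1.31 ± 0.11 (adjusted p = 4.78e-09) at 2 weeks and -1.79 ± 0.11 (adjusted p = 4.57e-11) at 4 weeks. In 2-week GFP- cells 9 of the 15 were higher than in cardiac fibroblasts and none lower, beside 13.8% higher and 8.93% lower of all genes, with Tnfaip3 at 1.13 ± 0.11 (adjusted p = 3.06e-07) and Nfkbia, the inhibitor that NF-kappaB induces, at 0.93 ± 0.13 (adjusted p = 3.78e-05). Of 9 interferon gamma pathway genes, 4 were lower in iCMs than in GFP- cells at 2 weeks and 7 at 4 weeks, with none higher, beside 18.4% and 17.1% of all genes lower. The receptor subunit gene Ifngr1 was lower by -1.31 ± 0.12 (adjusted p = 3.01e-08) at 2 weeks and -1.77 ± 0.12 (adjusted p = 3.62e-10) at 4 weeks, while Cxcl9 and Cxcl11, ligands that this pathway induces, were called nowhere, and Cxcl10, another of them, was lower at 4 weeks by -0.64 ± 0.16 (adjusted p = 0.00369).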

How the data were processed

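RNA, isolated with a PicoPure kit and amplified and labelled with MessageAmp II-biotin per the labels, had been hybridised to 18 Affymetrix mouse Gene 1.0 ST arrays. Deposited were log2 intensities for every probe set, made by the authors with RMA per the submitters' processing notes, in a version not given in the sources used here. Of 28682 probe sets, 21755 named 1 gene, 1592 several and 5335 none. The single-gene probe set with the highest mean was kept for each of 19912 genes. Ccl19 and Ccl25 had more than 1 probe set. Chemokine genes on probe sets that named several genes were not analysed here.

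All 18 arrays entered a linear model of each gene with group as its term (limma 3.58.1, lmFit and eBayes, R 4.3.3, prior 6.96 and residual 12 degrees of freedom). The 12 comparisons were tested two-sided, with Benjamini-Hochberg adjustment over all genes within each and a call at an adjusted p under 0.05. The method was tested on simulated data. Errors are SD for group means and SE for differences, and n = 3 arrays in each group. The series' design calls the arrays biological replicates, but no label ties them to separate cultures. The p-values then reflect how far these arrays vary, which may be technical. Precision is limited by having 3 arrays a group.

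The genes and the 14 gene lists (169 of 179 listed genes measured) were chosen with earlier results of these data known. Every gene of the 4 stems could be named, with array values for 15 measured key genes and the largest changes, and up to 3 genes per list and comparison. Alternatives were quantile and cyclic loess normalization, array weights, an intensity trend, a filter on genes under the 25th percentile, all probe sets or their mean per gene, a 2-fold minimum, a fit of the groups compared alone, a replicate block and leaving out each array.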

Additional observations from a re-analysis of the deposited data

Results flagged for a closer look

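The change from 2 to 4 weeks differed between iCMs and GFP- cells for 9 genes by the interaction in limma. The differences, change in iCMs minus change in GFP- cells, were -2.03 for Ccr3, -1.44 for Cxcl12, -0.99 for Ccl17, -0.94 for Ccl2, -0.93 for Ccl3, -0.84 for Ccl6, -0.75 for Cxcl16, -0.72 for Ccl7 and 0.60 for Cxcl14, on the log2 scale. Adjusted p ran from 3.48e-06 for Ccr3 to 0.0353 for Ccl17. With 3 arrays in each group, no group was large enough for a test of single deviating arrays.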

How the results depend on the processing

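Of 197 calls of a gene in a comparison, 158 held under every alternative run other than the 2-fold minimum, which was applied to the counts only, 39 were lost under at least 1, and none reversed. The filter on genes under the 25th percentile gave no value for the genes it removed, Ccr2 and Cxcl5 among them, so their calls were not put to it. Under this filter 418 of 564 results stayed on their side of the threshold, 2 were gained and the rest had no value. Array weights called 20 genes in 2-week GFP- cells against cardiac fibroblasts (11 without weights), 17 over time in iCMs (11), 17 over time in GFP- cells (11) and 19 in the interaction (9), and why was not tested. A 2-fold minimum, which by construction leaves fewer, left 13 genes in 2-week iCMs against 2-week GFP- cells, 14 in 2-week iCMs, 6 in 2-week GFP- cells and 5 in 4-week GFP- cells against cardiac fibroblasts, 9 in 2-week and 7 in 4-week iCMs against cardiomyocytes, 6 over time in iCMs, 5 over time in GFP- cells and 2 in the interaction. Deviations of same-numbered arrays from their group means were correlated between groups. In 0 of 15 pairs of groups were all 3 correlations over 0.1 (range -0.301 to 0.454), so the numbers were not taken as pairs. This cut does not exclude shared deviations in some pairs. The correlations were 0.454, 0.345 and 0.0836 for 2-week with 4-week iCMs. For 2-week iCMs with 2-week GFP- cells they were 0.27, 0.378 and -0.301. With the replicate number as a block the counts were 21 and 24 for iCMs against GFP- cells at 2 and 4 weeks, 12 and 13 for GFP- cells and 22 and 20 for iCMs against cardiac fibroblasts, 22 for cardiomyocytes, 19 and 15 for iCMs against cardiomyocytes, 11 and 13 over time in iCMs and GFP- cells, and 10 in the interaction. The block left 557 of 564 results on their side of the threshold, with 6 gained and 1 lost. Leaving out 1 array at a time gave 20 to 22 and 20 to 23 genes for iCMs against GFP- cells at 2 and 4 weeks, 18 to 20 and 19 to 21 for iCMs and 9 to 13 and 8 to 10 for GFP- cells against cardiac fibroblasts. It gave 19 to 21 for cardiomyocytes, 18 to 20 and 14 to 15 for iCMs against cardiomyocytes, 9 to 12 and 8 to 12 over time in iCMs and GFP- cells, and 7 to 11 in the interaction. Signals near background limit what can be said of Ccr1, Ccr2, Cxcl5, Ccl8, Cxcl13, Ccr9, Ccr8, Cxcr2, Cxcr5 and Cxcl15.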

Other observations

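Among the marker lists, single genes moved apart from the rest of their list. Itgax, an integrin of dendritic cells and some macrophages, rose over time in GFP- cells by 1.22 ± 0.17 (adjusted p = 5.23e-05), and its change differed from that in iCMs by -1.27 ± 0.24 (adjusted p = 0.00401), as the change of Ccr3 did. Mcpt4, a mast cell protease, was higher in iCMs than in GFP- cells by 2.73 ± 0.28 (adjusted p = 1.23e-07) at 2 weeks and 3.06 ± 0.28 (adjusted p = 2.58e-08) at 4 weeks, while no other gene of the list of 8 mast cell and eosinophil markers was called at 2 weeks and 1 other, Prg2, was called at 4 weeks (0.29 ± 0.11 (adjusted p = 0.0428)). Of 12 endothelial markers, 6 were higher and none lower in 4-week than in 2-week GFP- cells, beside 7.16% higher and 10.2% lower of all genes. Pecam1 rose by 1.69 ± 0.14 (adjusted p = 1.82e-07) and Cdh5 by 1.68 ± 0.12 (adjusted p = 2.05e-08), in the same comparison as Cxcl12 and Ccr3. The 12 endothelial markers averaged 8.34 in 4-week GFP- cells and 7.74 in 2-week GFP- cells.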
